A study of Mus musculus with 12 samples.

Results

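Trem2 and genes that mark lipid-associated microglia were followed in cultures of cerebellar granule neurons (CGNs), the small excitatory neurons of the cerebellar granule layer, from mice with and without the gene for interferon-β. The genes are a given list of 10: Trem2, Tyrobp, Adam8, Slc37a2, Lgals3, Gpnmb, Cd68, Lpl, Spp1 and Itgax. Of these, 9 were measured, out of 18193 genes read in all. Spp1 (osteopontin) had no probe set assigned to it alone in the annotation used, so it has no value. A gene was read from the brightest Affymetrix probe set annotated to it and to no other gene. The genes were selected on measured values of these same arrays, namely the difference between the untreated genotypes and the difference in response to interferon, in which Trem2, Adam8 and Slc37a2 had passed the test, and the other genes were added with those results in view. For these genes the values of those comparisons are therefore descriptions, given without p values, and the counts that passed a threshold there are read as no evidence. The 9 genes were tested only in the response averaged over both genotypes. The responses of the single genotypes were known when the genes were chosen, so this test is not independent of the choice either.

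The arrays came from 4 groups of 3 CGN cultures each. These were Ifnb-/- with rIFN-β, Ifnb+/+ with rIFN-β, untreated Ifnb-/- and untreated Ifnb+/+. All mice were of the B10.RIII strain, and the cultures were grown for 3 days from cerebella of pups aged 7 days per the sample labels. Recombinant interferon-β (rIFN-β) was given at 100 U/ml for 24 hr, and cultures that received it are called treated. The deletion is germline, so every cell type of an Ifnb-/- culture lacked the gene. The sources used here do not say whether the triplicate cultures came from separate litters, so every error and p value reflects only how these particular cultures varied.

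TREM2 is a receptor on microglia and other macrophages that binds lipids, lipoproteins and cell debris. It has no signaling domain of its own and signals through the adaptor TYROBP (DAP12) to the kinase SYK. In mice it is required for microglia to enter fully a state, described around lipid deposits and in neurodegeneration models, in which lipid-handling, lysosomal and phagocytic genes rise while homeostatic microglial genes decline. Interferon-β acts on microglia and neurons alike through the receptor IFNAR.

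The label of the cells was compared with marker genes. The granule neuron transcription factor Neurod1 averaged 11.94 ± 0.26 in treated Ifnb-/-, 12.06 ± 0.25 in treated Ifnb+/+, 12.36 ± 0.12 in untreated Ifnb-/- and 11.71 ± 0.35 in untreated Ifnb+/+ (log2 array signal, SD, n = 3 each). Of the other granule neuron markers, Zic1 had group means of 12.41 to 12.72 and Rbfox3 of 10.15 to 10.47. Some were much dimmer: group means of Gabra6 were 5.19 to 6.63, and Grin2c averaged below 4. Transcripts of other glia were present, with group means of 9.98 to 10.61 for oligodendrocyte Mbp and 7.57 to 9.06 for astrocyte Gfap. From the same lists, Mog and Gdf10 averaged below 4. The cultures also carried transcripts of microglia or macrophages. Of 20 such markers all were measured, and 17 had a mean of at least 4 on the log2 scale; Itgam, Cd163 and Lyve1 did not. Of 14 measured markers of homeostatic microglia, P2ry12, P2ry13, Cx3cr1, Sall1, Siglech and Gpr34 averaged below 4. Arrays of a group correlated at 0.971 or more over all genes. The spread was narrowest in untreated Ifnb-/-, with a median SD over genes of 0.0872, against 0.201 in untreated Ifnb+/+. Ifnb1 was near the bottom of the scale in every group, between 2.66 and 2.95 on average, and does not check the genotype.

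Trem2 (chr17:48346401-48352276, coordinates from RefSeq, GRCm38.p6) was highest in untreated Ifnb+/+ CGNs. Its log2 values were 5.70, 5.93 and 6.01 in treated Ifnb-/-, 5.19, 4.95 and 5.39 in treated Ifnb+/+, 5.75, 5.54 and 5.67 in untreated Ifnb-/-, and 6.79, 6.75 and 6.49 in untreated Ifnb+/+. All Ifnb-/- arrays lay below all Ifnb+/+ arrays without rIFN-β and above them with it. The order of the means was Ifnb+/+, Ifnb-/- with rIFN-β, Ifnb-/- and Ifnb+/+ with rIFN-β, and only the 2 Ifnb-/- groups overlapped. Untreated Ifnb-/- was 2.04-fold lower than untreated Ifnb+/+ (log2 fold change -1.03, SE 0.14). With rIFN-β the Ifnb-/- mean differed by 0.23 (SE 0.14, 95% interval -0.07 to 0.53) and the Ifnb+/+ mean was 2.83-fold lower (-1.5, SE 0.14). In a bulk culture, fewer microglia and less RNA of a gene per microglial cell cannot be told apart. The suffix of this probe set marks it as one that can match more than 1 transcript. A dimmer probe set of Trem2 showed none of this, at 3.43 ± 0.25, 3.53 ± 0.06, 3.41 ± 0.04 and 3.50 ± 0.09 in the same 4 groups (treated Ifnb-/-, treated Ifnb+/+, untreated Ifnb-/-, untreated Ifnb+/+), and with the mean of both the untreated genotype difference was -0.56.

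Tyrobp (chr7:30413782-30417582), the adaptor through which TREM2 and several other myeloid receptors signal, had a different profile. It read 8.56, 8.58 and 8.83 in treated Ifnb-/-, 8.83, 8.72 and 8.21 in treated Ifnb+/+, 9.25, 9.02 and 9.25 in untreated Ifnb-/-, and 9.13, 9.77 and 9.36 in untreated Ifnb+/+. The genotypes overlapped with and without rIFN-β, and all treated arrays were below all untreated ones. The log2 fold change of rIFN-β was -0.51 (SE 0.19) in Ifnb-/- and -0.83 (SE 0.19) in Ifnb+/+. Between untreated genotypes it was -0.25 (SE 0.19, 95% interval -0.66 to 0.16). The untreated genotypes were thus apart for the receptor and overlapped for its adaptor.

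**Figure D1:**
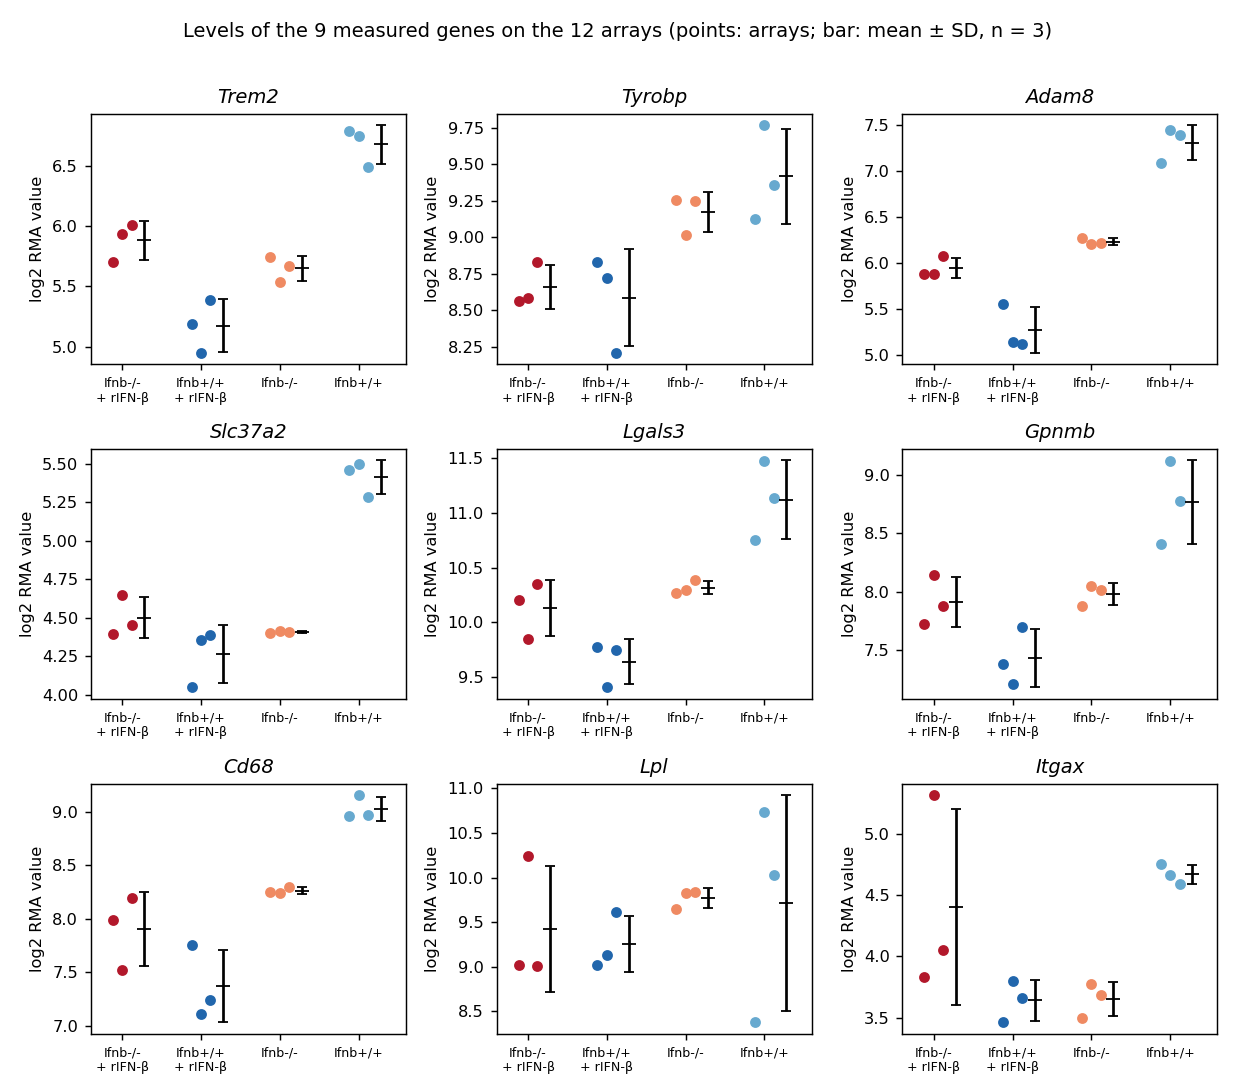
Log2 array signal (RMA, vertical axes, each with its own range) of the 9 measured genes in Ifnb-/- with rIFN-β, Ifnb+/+ with rIFN-β, untreated Ifnb-/- and untreated Ifnb+/+ cultures; points are arrays and bars the mean ± SD (n = 3). Untreated Ifnb+/+ had the highest mean of every gene but Lpl, and Ifnb+/+ with rIFN-β the lowest mean of all 9, for example 5.18 for Trem2 in Ifnb+/+ with rIFN-β against 6.68 in untreated Ifnb+/+.

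Adam8 (chr7:139978932-139995207), a membrane metalloprotease of leukocytes and reactive glia, had the largest difference between group means of the 9 genes. It read 5.88, 5.88 and 6.07 in treated Ifnb-/-, 5.56, 5.15 and 5.12 in treated Ifnb+/+, 6.27, 6.20 and 6.22 in untreated Ifnb-/-, and 7.09, 7.44 and 7.38 in untreated Ifnb+/+. No 2 groups overlapped. With rIFN-β the Ifnb-/- mean was 1.22-fold lower (-0.29, SE 0.14) and the Ifnb+/+ mean 4.09-fold lower (-2.03, SE 0.14).

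Slc37a2 (chr9:37229149-37255738), a sugar-phosphate exchanger of the endoplasmic reticulum that is abundant in macrophages, was dim in 3 of the 4 groups. Its values were 4.39, 4.65 and 4.46 in treated Ifnb-/-, 4.05, 4.35 and 4.39 in treated Ifnb+/+, 4.40, 4.42 and 4.41 in untreated Ifnb-/-, and 5.46, 5.50 and 5.29 in untreated Ifnb+/+. The untreated Ifnb+/+ arrays stood clear of the other 9, the 2 Ifnb-/- groups overlapped, and the closest treated arrays of the genotypes read 4.39 each. The log2 fold change was -1.0 (SE 0.12) between untreated genotypes. That of rIFN-β was 0.09 (SE 0.12) in Ifnb-/- and -1.15 (SE 0.12) in Ifnb+/+.

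The promoters of Trem2, Adam8 and Slc37a2 are shown because these 3 genes passed the test of the interaction of genotype and rIFN-β. Each is given from 250 bases before to 50 bases after the RefSeq transcription start (GRCm38.p6), on the gene's own strand. Trem2 is chr17:48346151-48346450 (+), Adam8 chr7:139992513-139992812 (-) and Slc37a2 chr9:37255689-37255988 (-). Capitals mark matches to 2 motifs, GAGGAA (the core bound by the myeloid factor PU.1, seen here as TTCCTC on the opposite strand) and TGANTCA (bound by AP-1).
Trem2: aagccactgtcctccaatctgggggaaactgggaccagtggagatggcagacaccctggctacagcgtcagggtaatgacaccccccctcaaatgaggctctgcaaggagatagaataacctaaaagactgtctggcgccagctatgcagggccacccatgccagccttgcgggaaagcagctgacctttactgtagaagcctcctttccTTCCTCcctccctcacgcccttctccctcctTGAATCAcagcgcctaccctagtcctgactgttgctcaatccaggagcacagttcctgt
Adam8: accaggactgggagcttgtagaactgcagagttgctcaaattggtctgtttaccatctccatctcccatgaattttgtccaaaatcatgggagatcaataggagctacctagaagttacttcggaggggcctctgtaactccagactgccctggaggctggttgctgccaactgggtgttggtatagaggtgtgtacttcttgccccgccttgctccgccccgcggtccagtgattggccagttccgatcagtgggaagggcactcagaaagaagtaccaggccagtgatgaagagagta
Slc37a2: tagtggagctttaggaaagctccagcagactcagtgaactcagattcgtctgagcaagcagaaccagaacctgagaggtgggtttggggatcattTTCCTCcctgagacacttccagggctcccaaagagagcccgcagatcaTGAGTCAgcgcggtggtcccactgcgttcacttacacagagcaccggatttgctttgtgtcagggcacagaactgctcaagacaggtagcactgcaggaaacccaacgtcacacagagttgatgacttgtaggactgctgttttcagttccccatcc
In Trem2 the PU.1 core starts at -40 and the AP-1 motif at -9 from the start, and in Slc37a2 they start at -155 and -107. Neither motif occurs in the Adam8 window, which lies inside the span given above for the gene and not at its outermost 5′ end. The 8 listed genes with a RefSeq promoter here, Spp1 included, had 9 promoters, since Spp1 had 2. GAGGAA was in 4 of the 9 and in 28.3% of 32851 mouse promoters of this length. TGANTCA was in 5 of the 9 and in 7.81% of all. The core of the interferon-stimulated response element (ISRE) was in 1 of the 9, a Spp1 promoter, and in 3.44% of all, and the lysosomal E-box CACGTG was in none of the 9 and in 7.15% of all. These are matches of letters, searched on both strands, and no binding was measured.

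Among genes of phagocytes and lysosomes, Lgals3 (chr14:47373860-47386167), encoding galectin-3, was also highest in untreated and lowest in treated Ifnb+/+ cultures. Its values were 10.20, 9.85 and 10.35 in treated Ifnb-/-, 9.77, 9.41 and 9.74 in treated Ifnb+/+, 10.27, 10.30 and 10.38 in untreated Ifnb-/-, and 10.75, 11.47 and 11.13 in untreated Ifnb+/+. Only the 2 Ifnb-/- groups overlapped. The untreated genotype difference was -0.80 (SE 0.18), and the log2 fold change of rIFN-β was -0.18 (SE 0.18) in Ifnb-/- against -1.48 (SE 0.18) in Ifnb+/+.

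Gpnmb (chr6:49036518-49058182), a lysosomal and surface glycoprotein of lipid-laden macrophages, read 7.72, 8.14 and 7.87 in treated Ifnb-/- against 7.38, 7.21 and 7.70 in treated Ifnb+/+. Untreated, it read 7.88, 8.05 and 8.01 in Ifnb-/-, and 8.41, 9.12 and 8.78 in Ifnb+/+. The Ifnb-/- groups overlapped each other, and the nearest treated arrays of the 2 genotypes differed by little, 7.72 in Ifnb-/- against 7.70 in Ifnb+/+. The log2 fold change of rIFN-β was -0.07 (SE 0.19) in Ifnb-/- and -1.34 (SE 0.19) in Ifnb+/+. A second probe set of Gpnmb was near the bottom of the scale in all groups, at means of 2.38 to 2.82.

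Cd68 (chr11:69664213-69666170), the lysosomal membrane glycoprotein used to stain phagocytes, read 7.99, 7.52 and 8.20 in treated Ifnb-/- against 7.76, 7.12 and 7.25 in treated Ifnb+/+. In untreated cultures it read 8.25, 8.24 and 8.30 in Ifnb-/-, and 8.96, 9.15 and 8.97 in Ifnb+/+. The untreated groups were apart, while the treated genotypes overlapped. The log2 fold change of rIFN-β was -0.36 (SE 0.19) in Ifnb-/- and -1.65 (SE 0.19) in Ifnb+/+.

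The other 2 genes were less regular between arrays of a group. Lpl (chr8:68880555-68906932), encoding the lipoprotein lipase that releases fatty acids from lipoproteins, read 9.02, 10.24 and 9.01 in treated Ifnb-/-, 9.02, 9.14 and 9.61 in treated Ifnb+/+, 9.64, 9.83 and 9.83 in untreated Ifnb-/-, and 8.38, 10.74 and 10.03 in untreated Ifnb+/+. Treated Ifnb+/+ lay just below untreated Ifnb-/-, all other pairs of groups overlapped, and the spread within untreated Ifnb+/+ (SD 1.21) exceeded every difference between means. Its other probe set averaged 7.32 ± 0.50 in treated Ifnb-/-, 7.05 ± 0.36 in treated Ifnb+/+, 7.89 ± 0.14 in untreated Ifnb-/- and 7.98 ± 0.81 in untreated Ifnb+/+.

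Itgax (chr7:128129526-128150657), the integrin subunit CD11c, read 3.83, 5.32 and 4.06 in treated Ifnb-/-, 3.46, 3.80 and 3.66 in treated Ifnb+/+, 3.50, 3.77 and 3.69 in untreated Ifnb-/-, and 4.75, 4.66 and 4.60 in untreated Ifnb+/+. The treated Ifnb-/- arrays lay above the untreated Ifnb-/- arrays and overlapped untreated Ifnb+/+, but their mean rested largely on 1 array. Without replicate 2 of that group the rIFN-β effect in Ifnb-/- was 0.29 rather than 0.75, and the genotype difference with rIFN-β 0.30 rather than 0.76. The same array was highest in its group for Lpl, and its summed level of 10 astrocyte markers was 7451, against 2555 and 2701 in the other 2; the part of this in the result was not tested.

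Averaged over both genotypes, rIFN-β lowered 7 of the 9 genes (limma, 4 group means over 12 arrays, adjusted p under 0.05 over 18193 genes) and raised none, where 2.31% of all genes were lowered and 2.53% raised. The log2 fold changes were -1.16 for Adam8 (adjusted p = 2.19e-05), -1.01 for Cd68 (0.000722), -0.83 for Lgals3 (0.0026), -0.71 for Gpnmb (0.00793), -0.67 for Tyrobp (0.0117), -0.64 for Trem2 (0.00244) and -0.53 for Slc37a2 (0.00297). Itgax was at -0.14 (95% interval -0.59 to 0.31) and Lpl at -0.40 (-1.15 to 0.35), neither past the threshold. The median of the 9 was -0.67, against 0.02 over all genes. For Trem2, Slc37a2 and Itgax the average is of unlike parts, since in Ifnb-/- their estimates were above 0. For Itgax the parts were 0.75 in Ifnb-/- and -1.03 in Ifnb+/+. An exact two-sided permutation test of treatment within each genotype, whose smallest possible p is 0.005, gave 0.005 for Tyrobp, Adam8 and Cd68, 0.015 for Lgals3, 0.03 for Gpnmb, 0.085 for Slc37a2, 0.095 for Trem2, 0.34 for Lpl and 0.685 for Itgax, not adjusted over the genes. When its 2 probe sets were averaged, Gpnmb no longer passed (-0.48, adjusted p = 0.0691 by limma), and Trem2, averaged likewise, was at -0.31 (0.0344). The count of 7 stood when any of the 12 arrays was left out. Since the genes were chosen with the responses of both genotypes known, these p values are not independent of the choice.

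In Ifnb-/- alone none of the 9 genes passed the threshold with rIFN-β, against 1.67% of all genes in either direction, and their median was -0.18. By limma's unadjusted p under 0.05, Itgax was higher (as were 9.16% of all genes) and Tyrobp lower (5.44% of all). The treated and untreated Ifnb-/- arrays did not overlap for 4 of the 9, higher for Itgax (20.3% of all genes were higher in this way) and lower for Tyrobp, Adam8 and Cd68 (12.6% of all). In Ifnb+/+ alone 7 of the 9 passed it as lower, against 1.36% of all genes, and 8 did not overlap between treated and untreated arrays, against 9.28% of all genes. Their median was -1.34. The plot of rIFN-β effects by genotype shows both estimates for each gene. Since the genes were chosen with the interaction known, nothing is read from these counts.

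**Figure D2:**
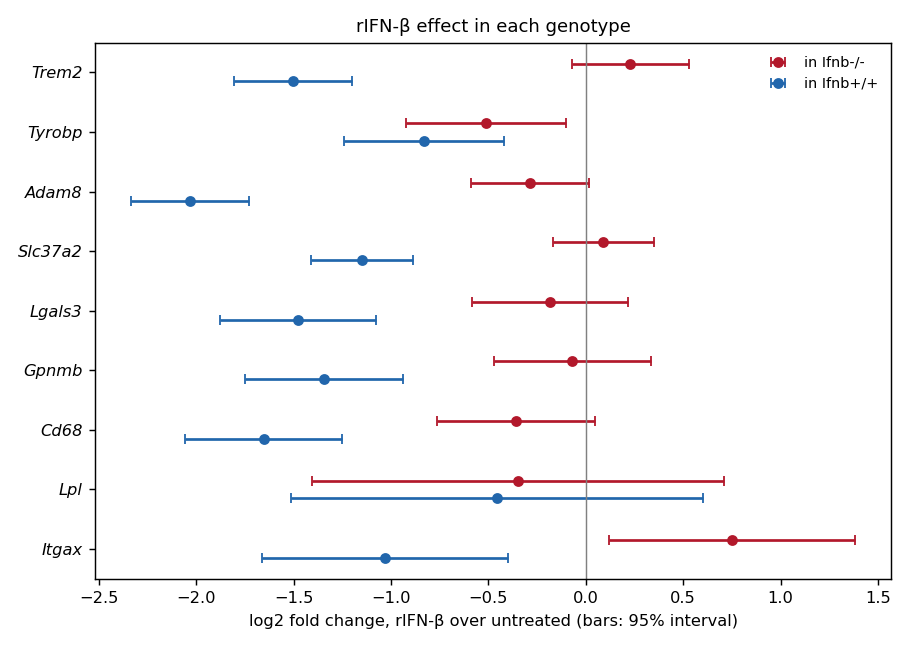
Log2 fold change of rIFN-β over untreated (horizontal axis) for the 9 genes in Ifnb-/- (red) and Ifnb+/+ (blue) cultures, with 95% intervals from limma as bars (3 arrays per group). The Ifnb+/+ estimate lies below the Ifnb-/- estimate for every gene, from -0.29 in Ifnb-/- against -2.03 in Ifnb+/+ for Adam8 to -0.35 in Ifnb-/- against -0.46 in Ifnb+/+ for Lpl, where the intervals overlap almost wholly.

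Between untreated genotypes, 3 of the 9 genes (Trem2, Adam8 and Slc37a2) passed the threshold as lower in Ifnb-/-, against 0.0824% of all genes, and 7 of the 9 did not overlap, against 18.1% of all genes. The median of the 9 was -0.80 and that of all genes -0.09. Itgax was at -1.02 (SE 0.29), Gpnmb at -0.79 (SE 0.19) and Cd68 at -0.77 (SE 0.19). Lpl was at 0.06 (95% interval -1.0 to 1.11). The count was 0 without any 1 of the 3 untreated Ifnb-/- arrays, 1 without untreated Ifnb+/+ replicate 3 and 7 without untreated Ifnb+/+ replicate 2. Without that last array 1646 of all genes were called higher and 2200 lower, against 6 and 15 with it. The untreated Ifnb+/+ arrays also enter the rIFN-β effect in Ifnb+/+, so these sets of values share 3 arrays.

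With rIFN-β the genotypes stood the other way round. None of the 9 genes passed the threshold, against 0.0605% of all genes, while 6 of the 9 had an unadjusted p under 0.05 by limma, all higher in Ifnb-/-, as were 1.88% of all genes. All Ifnb-/- arrays were above all Ifnb+/+ arrays for 6 of the 9, against 4.64% of all genes. The log2 fold changes of Ifnb-/- over Ifnb+/+ were 0.71 (SE 0.14) for Trem2, 0.67 (SE 0.14) for Adam8, 0.53 (SE 0.19) for Cd68, 0.49 (SE 0.18) for Lgals3 and 0.48 (SE 0.19) for Gpnmb. For Slc37a2 the value was 0.24 (SE 0.12), for Tyrobp 0.07 (SE 0.19) and for Lpl 0.17 (SE 0.49). Full reversal of the array order, below when untreated and above with rIFN-β, occurred in 6 of the 9 (Trem2, Adam8, Slc37a2, Lgals3, Gpnmb and Itgax) and in 0.753% of all genes, 137 in number, and both contrasts had entered the choice of the genes.

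**Figure D3:**
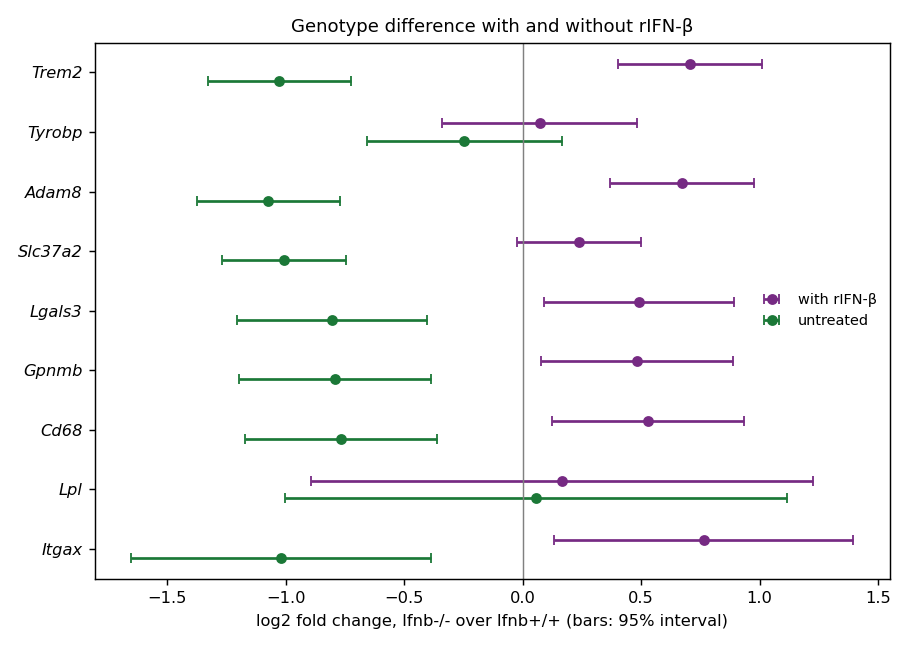
Log2 fold change of Ifnb-/- over Ifnb+/+ (horizontal axis) for the 9 genes in cultures with rIFN-β (purple) and untreated cultures (green), with 95% intervals from limma as bars. Estimates for 8 of the 9 genes change sign between the conditions, for Trem2 0.71 with rIFN-β against -1.03 untreated; Lpl is above 0 in both.

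The difference of the 2 rIFN-β effects (Ifnb-/- minus Ifnb+/+) was 1.73 for Trem2 (SE 0.20), 1.74 for Adam8 (SE 0.20) and 1.24 for Slc37a2 (SE 0.17). These were 3 of the 4 genes called in this comparison, which made up 0.022% of all genes. When equal replicate numbers were fitted as a block, 0 genes were called. Itgax (1.78, SE 0.41), Cd68 (1.30, SE 0.26), Lgals3 (1.29, SE 0.26) and Gpnmb (1.27, SE 0.26) had values of similar size with wider errors. Tyrobp was at 0.32 (SE 0.27) and Lpl at 0.11 (SE 0.69). The count of 3 was 0 without any 1 of the 3 untreated Ifnb-/- arrays, without Ifnb-/- with rIFN-β replicate 2 or 3, or without Ifnb+/+ with rIFN-β replicate 2. It was 1 without Ifnb-/- with rIFN-β replicate 1 or untreated Ifnb+/+ replicate 3, and 7 without untreated Ifnb+/+ replicate 2. Without that last array 803 of all genes were called higher and 434 lower, against 4 and 0 with it.

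The 9 genes varied together mainly between groups. Over all 12 arrays their 36 pairs had a median Pearson r of 0.757 (0.194 to 0.972), and after subtraction of the group means the median was 0.271 (-0.739 to 0.90). With Trem2, r over the arrays was 0.922 for Slc37a2, 0.915 for Adam8, 0.909 for Gpnmb, 0.890 for Lgals3, 0.871 for Cd68, 0.710 for Itgax, 0.624 for Tyrobp and 0.206 for Lpl. Within groups, Gpnmb and Lpl had the highest r of any pair, 0.90. The arrays share their groups, so these values describe 12 points in 4 clusters.

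**Figure D4:**
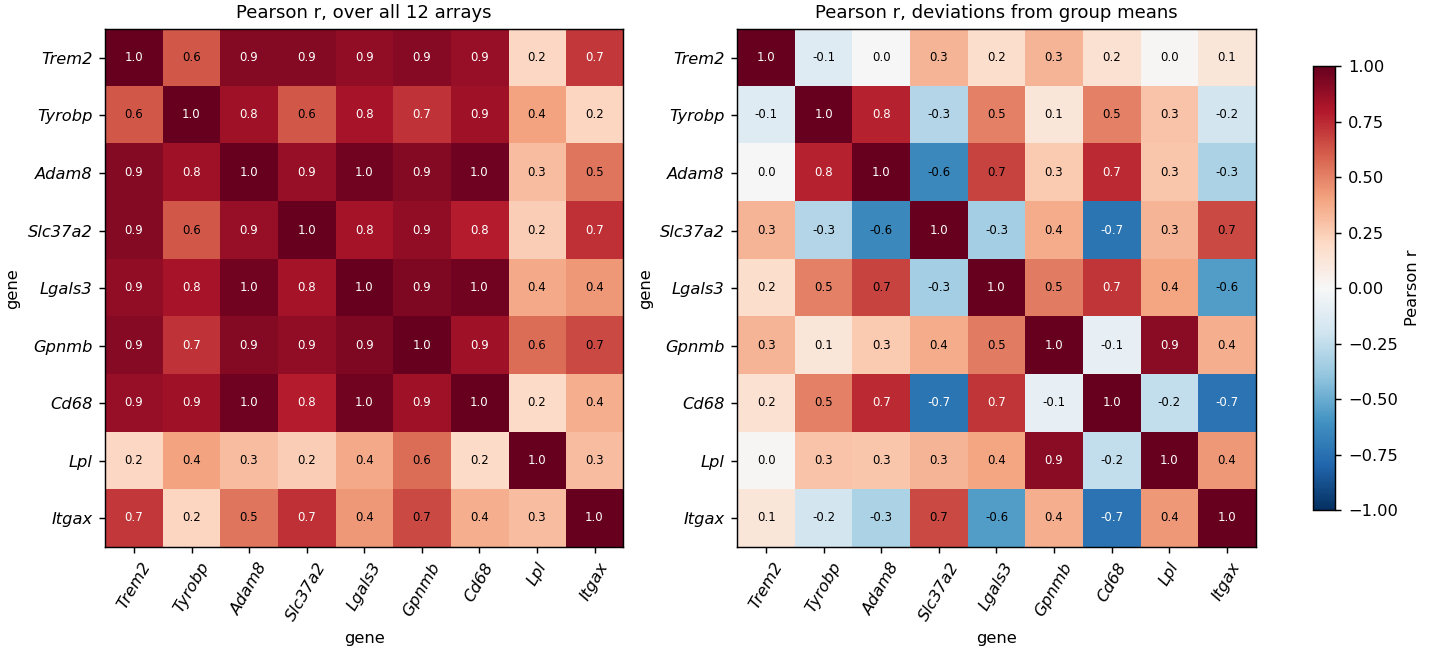
Pearson r between each pair of the 9 genes, over all 12 arrays (left) and of deviations from the 4 group means (right); colour and printed value give r. Most pairs are near 0.9 on the left except those with Lpl, Itgax or Tyrobp, and the right panel has values of both signs, from -0.739 to 0.90.

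The genes outside the list whose profile was most like that of Trem2 over the 12 arrays were Ctsd (r = 0.955), Adssl1 (0.925), Ppara (0.923), Plekho2 (0.917), Slc20a2 (0.916), Rab3il1 (0.910), Lpxn (0.903) and Gla (0.898). Ctsd encodes the lysosomal protease cathepsin D, and Gla the lysosomal α-galactosidase A. Within groups the r with Trem2 was 0.783 for Slc20a2, 0.576 for Gla, 0.487 for Ctsd and 0.484 for Plekho2. It was 0.437 for Lpxn, 0.234 for Adssl1, 0.157 for Rab3il1 and 0.152 for Ppara. Ctsd averaged 9.86 in treated Ifnb-/-, 9.49 in treated Ifnb+/+, 9.93 in untreated Ifnb-/- and 10.62 in untreated Ifnb+/+. A high r does not mean a change of like size. Group means spanned 7.02 to 7.22 for Slc20a2 and 3.39 to 3.80 for the dim Ppara, against 5.18 to 6.68 for Trem2.

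Of 19 measured genes of the pathway around TREM2, of 21 listed, which include ligands (Apoe, Clu), the kinase Syk, its effectors Plcg2 and Vav1 and the phosphatase Inpp5d, 1 was lowered by rIFN-β averaged over genotypes and none was raised, beside 2.31% lowered and 2.53% raised among all genes. That gene was Vav1, an exchange factor downstream of SYK (-0.51, adjusted p = 0.0447 by limma). Vav1 was dim, at 3.01 in treated Ifnb-/-, 3.05 in treated Ifnb+/+, 3.31 in untreated Ifnb-/- and 3.78 in untreated Ifnb+/+. The median of the 19 was -0.22 for the averaged effect and -0.20 between untreated genotypes, against -0.67 and -0.80 for the 9 genes.

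Of 26 measured other genes of lipid-associated or disease-associated microglia, 2 rose and 5 fell with rIFN-β averaged over genotypes, by limma. Among all genes 2.53% rose and 2.31% fell. Csf1, the macrophage growth factor, rose by 1.72 (adjusted p = 4.36e-05) and Ch25h, which makes 25-hydroxycholesterol, by 1.13 (0.000655). Ctsd was at -0.60 (0.000429) and Ctsz, another lysosomal cathepsin, at -0.86 (0.000737). The list therefore did not move one way. Between untreated genotypes, Plin2, a lipid-droplet coat protein, was lower in Ifnb-/- (-0.94, adjusted p = 0.0159 by limma), as was Ctsd (-0.70, 0.0284), where 0.0824% of all genes were, and the 26 had a median of -0.32. Without untreated Ifnb-/- replicate 2 no gene at all was called in this comparison, so both calls were lost, and the list was chosen with these results known.

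Markers of microglia and macrophages in general also moved with rIFN-β. Of 20, 7 fell and 1 rose in the averaged effect by limma, with a median of -0.53. Over all genes 2.31% fell and 2.53% rose, with a median of 0.02. Laptm5, a lysosomal protein of blood cells, was at -0.89 (adjusted p = 0.000642), Cd14, a coreceptor for bacterial lipopolysaccharide, at -1.21 (0.00686) and Pf4, a chemokine of platelets and macrophages, at -1.14 (0.0113), while the high-affinity IgG receptor Fcgr1 rose by 0.67 (0.00379). The median of the 20 was -0.71 in Ifnb-/- and -0.51 in Ifnb+/+, where the 9 genes were at -0.18 in Ifnb-/- and -1.34 in Ifnb+/+; the difference between the lists was not tested. The list was mixed: the estimate was lower in Ifnb+/+ for 9 of the 20 and lower in Ifnb-/- for 11. C1qa, C1qb, C1qc and Fcgr3 were like most of the 9 genes. Their values were 0.02, 0.03, 0.17 and -0.09 in Ifnb-/-, and -1.06, -1.12, -1.10 and -0.85 in Ifnb+/+. The summed linear level of the 20 markers ranged over 2906 to 3402 in treated Ifnb-/-, 3284 to 4198 in treated Ifnb+/+, 4585 to 5115 in untreated Ifnb-/- and 4281 to 6938 in untreated Ifnb+/+. That of the 9 genes ranged over 2686 to 3165, 2051 to 2406, 3345 to 3589 and 3771 to 6902 in the same groups (treated Ifnb-/-, treated Ifnb+/+, untreated Ifnb-/-, untreated Ifnb+/+). Both sums were highest on untreated Ifnb+/+ replicate 2. The part of microglial number in these results was not tested.

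Homeostatic microglial markers had a median of -0.01 for the averaged effect, with Csf1r, the receptor for CSF1 (-0.63, adjusted p = 0.00246), and Fcrls (-0.96, 0.0215) lowered of 14 measured, by limma. The share of all genes lowered was 2.31%. The summed level of the 14 was 495 to 589 in treated Ifnb-/-, 590 to 706 in treated Ifnb+/+, 596 to 663 in untreated Ifnb-/- and 808 to 840 in untreated Ifnb+/+. Untreated Ifnb+/+ was thus highest in this sum too, without overlap. The sum rests mainly on bright genes such as Csf1r (8.39 in untreated Ifnb+/+) and Fcrls (7.60), while 6 of the 14 averaged below 4. Between untreated genotypes all 14 estimates were below 0, and 0 passed the threshold. The 13 measured granule neuron markers had a median of 0.00 for the averaged effect and 0.26 between untreated genotypes, and their summed level was lowest in untreated Ifnb+/+, at 24781 to 27128 in untreated Ifnb-/- against 19291 to 21532 in untreated Ifnb+/+. All 13 measured interferon-stimulated genes rose with rIFN-β, with a median of 5.18 over both genotypes by limma. Their median was 4.54 in Ifnb-/- and 5.81 in Ifnb+/+. Between treated genotypes all 13 estimates were lower in Ifnb-/-, with a median of -1.11, and 0 passed the threshold.

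**Figure D5:**
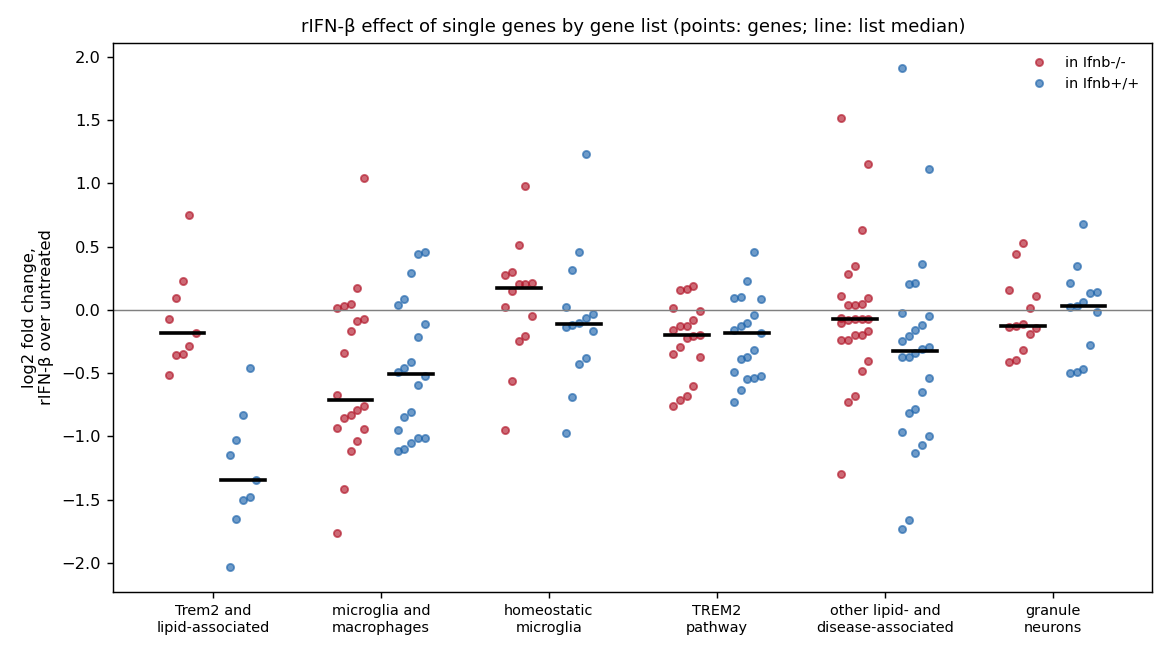
Log2 fold change of rIFN-β over untreated (vertical axis) for single genes of 6 lists in Ifnb-/- (red) and Ifnb+/+ (blue) cultures; points are genes and lines the list medians. The 9 genes at left have medians of -0.18 in Ifnb-/- and -1.34 in Ifnb+/+, and the microglia and macrophage markers -0.71 in Ifnb-/- and -0.51 in Ifnb+/+.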

How the data were processed

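Each of 12 CGN cultures, 3 per group, had its RNA measured on an Affymetrix whole-genome mouse array. The log2 values deposited, for 45037 probe sets, had been made by the authors with quantile normalization and RMA in the Arraystar software. They were used without further normalization, and array medians lay between 4.33 and 4.42. Of the probe sets, 34945 named 1 gene, 932 several and 9160 none in the annotation used, and a gene was read from its brightest single-gene probe set (18193 genes). The number of arrays limits the precision.

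Comparisons were contrasts of 4 group means in a single limma 3.58.1 fit (R 4.3.3) to all arrays, leaving 8 residual degrees of freedom, with moderated variances and p values adjusted by Benjamini-Hochberg across every gene read. The 10 genes and the other lists were chosen with earlier results of these data known. The rIFN-β effect averaged over genotypes was tested because its estimate is uncorrelated with the untreated genotype difference and the interaction where groups vary alike. The groups' spreads differed, so this holds only approximately. The median SD over genes was 0.201 in untreated Ifnb+/+ against 0.0872 in untreated Ifnb-/-. High noise in the untreated Ifnb+/+ arrays would favour the choice of a gene and also make its averaged effect more negative. The script was checked on simulated arrays.

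Named were all 10 genes, up to 4 called genes per other list by smallest adjusted p, and the 8 genes most correlated with Trem2. Promoters came from RefSeq. Alternatives were the mean of probe sets, another quantile normalization, centring on the median, a minimum mean of 5, array weights, a trend with robust variance, only the compared groups, the methods' t-test, unadjusted p with a 1.5-fold change, a replicate block, and leaving out each array.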

Additional observations from a re-analysis of the deposited data

Results flagged for a closer look

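The interaction of genotype and rIFN-β passed its threshold (limma, Ifnb-/- effect minus Ifnb+/+ effect, adjusted over 18193 genes) for 3 of the 9 genes, which is what brought them to attention here. With a replicate block 0 of the 9 passed. The genes were selected on this same difference, so the values are a description and no p value is given. For Trem2 the difference was 1.73 on the log2 scale, from effects of 0.23 in Ifnb-/- and -1.5 in Ifnb+/+. For Adam8 it was 1.74, from -0.29 in Ifnb-/- and -2.03 in Ifnb+/+. For Slc37a2 it was 1.24, from 0.09 in Ifnb-/- and -1.15 in Ifnb+/+. No array was tested as an outlier, since each group held 3.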

How the results depend on the processing

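The 7 genes lowered by rIFN-β averaged over genotypes became 6 to 8 under the alternatives, and 7 without any 1 array. The averaged value of Itgax changed sign without replicate 1 of Ifnb-/- with rIFN-β (0.00198, adjusted p = 0.998 by limma), and ranged from -0.37 to 0.00198 when each array was left out. Lpl passed the threshold with array weights (-0.72, adjusted p = 0.00316 by limma), a setting that called 2568 genes as higher and 2120 as lower in this comparison.

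Counts of the 9 genes called in the other comparisons depended on the test. With array weights, whose fit stopped before it converged, the count was 4 for treated genotypes, 3 for rIFN-β in Ifnb-/-, 7 for the interaction and 8 for untreated genotypes. For treated genotypes that setting called 64 of all genes higher and 321 lower, and for rIFN-β in Ifnb-/- 3298 and 1819. In the interaction it called 3885 higher and 2409 lower of 18193 genes, and between untreated genotypes 3962 and 6915. At an unadjusted p under 0.05 and 1.5-fold, the count was 3 for treated genotypes, 1 for rIFN-β in Ifnb-/-, 7 for the interaction and 7 for untreated genotypes. By limma's unadjusted p alone, a looser rule with no fold limit, 1.88% of all genes were higher between treated genotypes and 9.16% higher with rIFN-β in Ifnb-/-. By the same rule 10.1% were higher in the interaction and 12.8% lower between untreated genotypes. With only the compared groups the count was 1 for rIFN-β in Ifnb-/-, where 645 genes were called higher and 631 lower over all. The methods' t-test, after Benjamini-Hochberg adjustment, called 0 for untreated genotypes and 0 for rIFN-β in Ifnb+/+, and with its unadjusted p under 0.05 and at least 1.5-fold, 7 and 8, all lower. Of all genes the adjusted t-test called 6 and 0. By the unadjusted rule 247 of all genes were lower between untreated genotypes and 281 lower with rIFN-β in Ifnb+/+. Leaving out each array gave 0 to 7 for untreated genotypes, 0 to 7 for the interaction, 6 to 8 for rIFN-β in Ifnb+/+, 0 to 0 for rIFN-β in Ifnb-/- and 0 to 1 for treated genotypes. Both counts of 7 came without untreated Ifnb+/+ replicate 2, when far more genes were called over the whole array too. The causes were not tested.

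The sample labels do not say whether equal replicate numbers pair the arrays. Correlations of deviations ranged from -0.501 to 0.432 over 18 same-numbered pairs, with 5 over 0.1, which does not settle it. With a replicate block the interaction called 0 of the 9 genes, against 3 without, and 0 of all genes, while the averaged effect called 7 of the 9. Trem2 rests on 1 probe set: with the mean of both, its interaction was 0.87 and its averaged effect -0.31 (adjusted p = 0.0344 by limma).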
